A study of Mus musculus with 12 samples.

Results

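The genes described here encode the α chains of the collagens, chosen by name alone as the entries whose symbol is Col, a type number, the letter a and a chain number. This pattern matched 44 of the 57180 genes measured in the livers of 12 mice. Another 6 symbols that begin with Col did not match it (Colec10, Colec11, Colec12, Colgalt1, Colgalt2 and Colq) and are not collagen α chains by this rule. The mice formed 4 groups of 3, by genotype (Het or KO) and sex, and single livers are named by genotype, sex (F or M) and mouse number. All of these mice lacked Csa (Ercc8) and had received AAV9-CSA, a vector with a human CSA cDNA under a ubiquitous chicken β-actin promoter, by injection into the cerebral ventricles as newborns. The Het mice carried Xpa+/- and were age-matched littermates. The KO mice were taken at the humane endpoint, so that genotype and the state of the animal at collection cannot be told apart. In the sample records KO stands for Csa-/- Xpa+/+, but the study describes these animals as CX mice, without Csa and without Xpa. Xpa was at 3.10 to 6.34 CPM (counts scaled to the library size) in the 6 Het livers and at 0.992 to 1.83 CPM in the 6 KO livers, lower in every KO liver (log2 fold change -1.83, SE 0.16, adjusted p = 4.14e-05). The groups are named KO and Het as on the labels, and no exact age was used here.

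Collagens are built from 3 α chains wound into a triple helix. Fibrillar collagens (types I, II, III, V, XI, XXIV and XXVII) form the banded fibrils of interstitial matrix and scar, with type I and type III the bulk of it in liver and type V a regulator of fibril width. Type IV collagen instead forms the sheet-like network of basement membranes, with α1 and α2 chains in most tissues and α3, α4, α5 and α6 chains in specialised ones such as the kidney glomerulus. Other families decorate fibrils (types IX, XII, XIV, XVI, XIX, XX and XXII), form beaded filaments (type VI) or build hexagonal networks (types VIII and X). The rest carry sulphated sugar chains at basement membranes (types XV and XVIII) or cross the cell membrane (types XIII, XVII, XXIII and XXV). In normal liver the hepatic stellate cell of the perisinusoidal space, together with portal fibroblasts, makes most interstitial collagen, whereas type XVIII is also made by hepatocytes.

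Libraries held 30044781 to 43634046 counts assigned to genes. Of the 44 collagen genes, 35 passed the filter on low counts and were tested. The other 9 were Col2a1, Col6a4, Col9a1, Col9a2, Col10a1, Col11a1, Col19a1, Col26a1 and Col28a1. Col11a1 had 0 counts in all livers, and no liver had more than 6 counts of any of the other 8. The tissue label matched the markers, since the summed level of 7 hepatocyte genes (of 8 listed, with Tf not matched by its symbol) was 70615 to 96129 CPM in Het livers and 92013 to 150671 CPM in KO livers. Among 6 skeletal muscle genes none passed the filter, and their sum did not exceed 0.465 CPM in any liver.

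By TPM, a transcript abundance with a fixed sum per library that corrects for gene length, so that different genes can be compared, Col18a1 stood far above the other collagen genes. It encodes the type XVIII chain, whose C-terminal fragment is endostatin, and had a median of 154 TPM over the 12 livers. Between 72.5% and 87.8% of all collagen TPM in a liver came from this gene. Next came Col4a1, Col14a1, Col4a2 and Col3a1, whose order depended on genotype and whose ranges over the livers overlapped. In Het livers the medians were 10.2 TPM for Col14a1, 7.33 for Col4a1, 5.81 for Col3a1 and 3.95 for Col4a2. In KO livers they were 10.5 TPM for Col4a1, 6.47 for Col4a2, 4.0002 for Col14a1 and 2.699 for Col3a1. Col27a1 (1.81 TPM), Col1a2 (1.80 TPM) and Col6a1 (1.45 TPM) followed by their medians over all livers, and Col1a1, the other type I chain, had a median of 0.581 TPM. Of the TPM of a library, 44.5% to 55.7% fell on the signal recognition particle RNAs Rn7s1 and Rn7s2, so TPM is used here for comparisons between genes in the same liver and CPM for comparisons between livers.

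Across both sexes, 13 of the 35 tested collagen genes differed between KO and Het livers, 6 of them higher and 7 lower in KO (edgeR quasi-likelihood test, Benjamini-Hochberg adjusted p under 0.05). Over all 19350 genes tested, 22.4% were called in this comparison, 12.2% higher and 10.2% lower. The called shares were 37.1% of the collagen genes, 50.0% of the 6 type IV genes and 33.3% of the 9 tested fibrillar genes. The median log2 fold change of the collagen genes was -0.077, beside 0.018 over all genes tested. Type IV had 3 genes higher and 0 lower with a median of 0.48, whereas the fibrillar class had 1 higher and 2 lower with a median of -0.22. Type VI had 2 lower and 0 higher of 5 tested, the fibril-associated class 2 lower and 1 higher of 6, the short-chain network class 1 lower of 2, and the multiplexins 1 higher of 2. No transmembrane gene of 4 was called in this comparison, and neither was Col7a1, the anchoring fibril chain, and 16 of the 35 collagen genes (45.7%) had an unadjusted p under 0.05, beside 36.1% of all genes. Of the 35, 4 genes (Col6a5, Col8a2, Col17a1 and Col22a1) reached 5 reads in 3 livers of 1 genotype only. Col17a1 was not called. The filter favours a difference in a gene that is tested only because it is high in 1 genotype, so the calls of the other 3 are given as a description. Without them 5 genes were higher and 5 lower of 31.

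**Figure D1:**
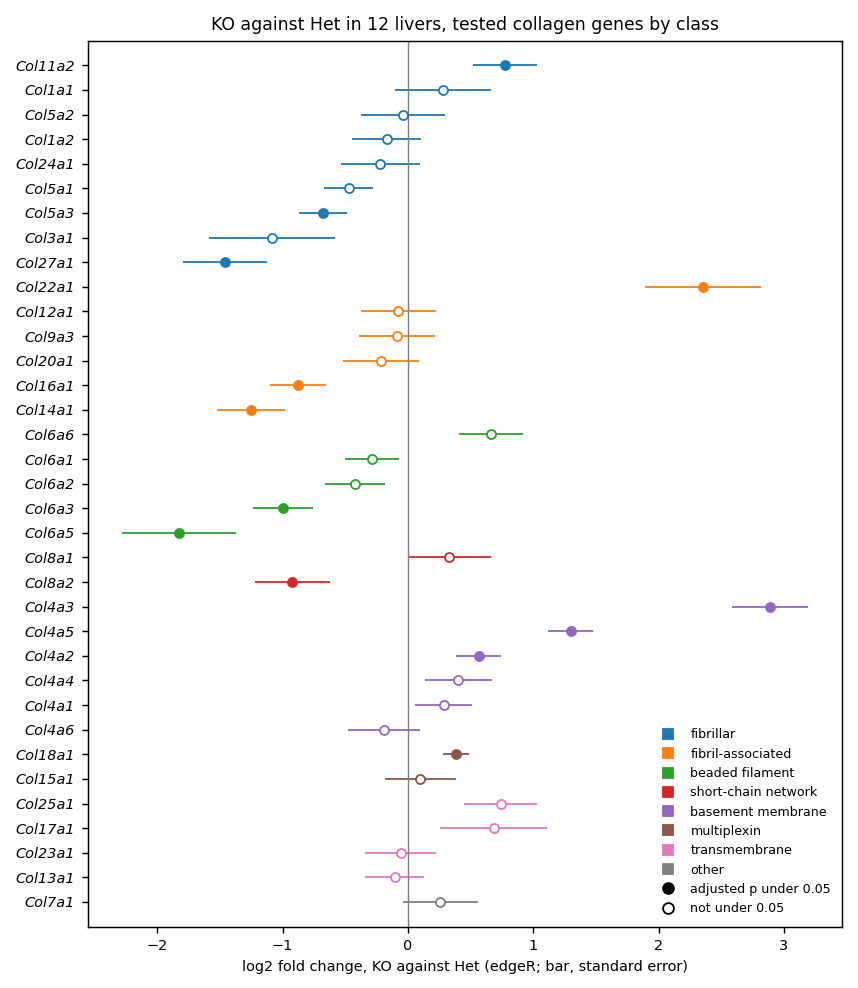
Log2 fold change of each tested collagen gene, KO against Het over both sexes, with its standard error as a bar, grouped and coloured by class; filled points passed an adjusted p of 0.05. Col4a3 lies furthest to the right at 2.89 and Col6a5 furthest to the left at -1.83, and 5 of the 6 type IV genes lie to the right of 0, whereas 7 of the 9 fibrillar genes lie to the left.

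By fitted log2 fold change, the largest rise among the collagen genes was that of a type IV chain. The pooled counts of Col22a1, few in number, gave a ratio of 16.9. Col4a3, the α3 chain of the specialised basement membrane network (chr1:82564642-82699780, plus strand, GRCm39, 52 exons), was at 0.958, 0.638 and 0.886 CPM in the Het females, 0.467, 0.846 and 1.28 CPM in the Het males, 5.64, 6.22 and 13.4 CPM in the KO females and 3.56, 7.40 and 4.70 CPM in the KO males. Every KO liver was above every Het liver, with 157 to 500 counts in the KO livers and 14 to 41 in the Het livers. The fold was 7.41 over both sexes (log2 fold change 2.89, SE 0.30, adjusted p = 0.000137), and it was called in each sex on its own, in females (log2 fold change 3.27, adjusted p = 0.00206) and in males (log2 fold change 2.51, adjusted p = 0.00588). Over all genes tested, 4.72% had all 6 KO livers above all 6 Het livers. Among the collagens Col4a3, Col4a5 and Col22a1 did so, the last of which was tested only through its KO livers. Col4a3 remained called after each mouse in turn was left out.

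Col4a5, the X-linked α5 chain that pairs with α3 and α4 or with α6 (chrX:140258354-140472231, plus strand, 53 exons), was at 2.87, 3.70 and 2.85 CPM in the Het females, 1.70, 2.08 and 2.14 CPM in the Het males, 3.94, 8.55 and 5.15 CPM in the KO females and 6.79, 6.24 and 6.64 CPM in the KO males. The KO livers did not overlap the Het livers, and the lowest KO liver was close to the highest Het liver, both of them female. The rise was 2.46-fold (log2 fold change 1.30, SE 0.18, adjusted p = 0.000740), with log2 fold change 0.89, adjusted p = 0.0443 in females and log2 fold change 1.70, adjusted p = 0.00345 in males. The call in females held in 2 of 12 fits that left out a mouse (those without KO_F_108 or KO_F_123), with adjusted p from 0.0274 to 0.149, and the call in males in 12 of 12. The difference between these sex-specific effects did not pass the test (log2 difference 0.81, adjusted p = 0.527).

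Col4a4 and Col4a6, the chains that partner these 2, were not called. The main annotated transcript of Col4a4 (chr1:82426144-82564800, minus strand, 48 exons) overlaps that of Col4a3 head to head, with 104 bases from 1 start site to the other. Col4a4 was at 1.47, 1.61 and 1.60 CPM in the Het females, 0.934, 1.66 and 1.57 CPM in the Het males, 1.74, 1.64 and 3.89 CPM in the KO females and 1.04, 2.30 and 1.42 CPM in the KO males. Of the KO livers 3 lay within the Het range and 3 above it, KO_F_123 furthest (log2 fold change 0.40, SE 0.27, adjusted p = 0.304). Col4a6 (chrX:139948399-140257072, minus strand, 45 exons) was at 0.160 to 0.518 CPM in Het and 0.203 to 0.433 CPM in KO livers (log2 fold change -0.19, adjusted p = 0.675), a value whose sign turned to 0.014 without Het_M_125. In the fit of counts, then, 1 gene of each head-to-head pair passed the test and the other did not, which is not a test of the difference between them.

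Col4a1 and Col4a2, the chains of the common network, made up 87.5% to 96.8% of type IV TPM in each liver. Their main annotated transcripts overlap head to head, with 318 bases from 1 start site to the other (chr8:11248423-11362826, minus strand; chr8:11362471-11499287, plus strand). Col4a2 was at 26.4, 43.6 and 30.1 CPM in the Het females, 27.9, 21.3 and 35.6 CPM in the Het males, 45.7, 50.3 and 45.6 CPM in the KO females and 41.5, 59.0 and 30.4 CPM in the KO males. Het and KO livers overlapped, with Het_F_115 above 2 of the KO livers, and the rise was 1.48-fold (log2 fold change 0.56, SE 0.18, adjusted p = 0.0424). This call depended on the animals. It held in 3 of 12 fits that left out 1 mouse (those without Het_F_115, Het_M_137 or KO_M_136), with adjusted p from 0.0213 to 0.101 across the 12. Col4a1 was at 48.5, 83.1 and 45.3 CPM in the Het females, 42.6, 32.0 and 53.1 CPM in the Het males, 48.6, 64.2 and 66.7 CPM in the KO females and 56.1, 91.7 and 38.7 CPM in the KO males, and its difference was within the spread of the livers (log2 fold change 0.28, SE 0.23, adjusted p = 0.399).

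The starts of Col4a5 and Col4a6 lie on opposite strands with 1281 bases between them, and they are shown because 1 gene of this pair rose and the other did not. The windows of 250 bases before each annotated start hold no annotated exon. They are given 5′ to 3′ on the strand of the gene in the GRCm39 assembly, in lower case. Capitals mark matches on either strand to the CCAAT box (CCAAT), to the GC box motif of Sp1 (GGGCGG) and to the TATA box (TATAAA).
Col4a5 (chrX:140258104-140258353, plus strand): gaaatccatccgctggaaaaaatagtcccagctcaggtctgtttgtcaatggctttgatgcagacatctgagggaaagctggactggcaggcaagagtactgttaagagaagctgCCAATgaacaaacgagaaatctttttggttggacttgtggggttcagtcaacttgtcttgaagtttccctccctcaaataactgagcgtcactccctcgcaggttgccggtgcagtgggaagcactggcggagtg
Col4a6 (chrX:140257073-140257322, minus strand): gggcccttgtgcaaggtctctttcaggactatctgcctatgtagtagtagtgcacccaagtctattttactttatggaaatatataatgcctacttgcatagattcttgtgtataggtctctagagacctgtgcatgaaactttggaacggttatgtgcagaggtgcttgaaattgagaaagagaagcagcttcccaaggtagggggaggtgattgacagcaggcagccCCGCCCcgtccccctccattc
The Col4a5 window held 1 CCAAT and the Col4a6 window 1 GGGCGG (read here as CCGCCC on the strand of the gene). Their G and C contents were 49.6% and 47.6%, against a median of 56.0% over the windows of 14323 tested protein-coding genes. In that set CCAAT occurred in 36.2% of windows, GGGCGG in 46.6% and TATAAA in 7.98%. These are matches of letters and show no binding.

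**Figure D2:**
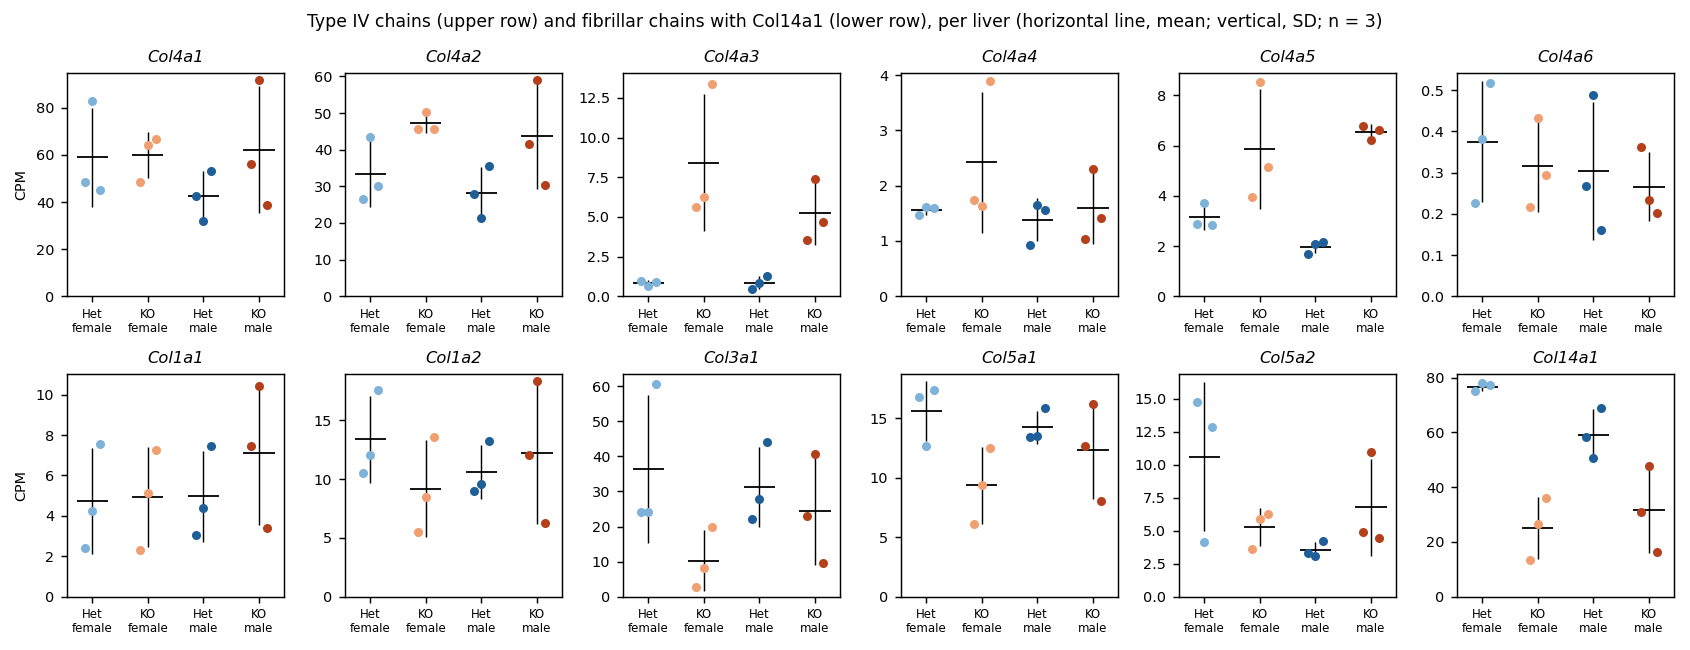
CPM of the 6 type IV chains (upper row) and of 5 fibrillar chains and Col14a1 (lower row) in each liver, with points for single livers, a horizontal line for the group mean and a vertical line for the SD (n = 3). Col4a3 and Col4a5 are higher in every KO liver, Col14a1 is lower in every KO liver, and Col1a1 and Col1a2 overlap between genotypes.

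No rise of the chains of the major fibrils was detected. Col1a1, the α1 chain of type I collagen and a usual marker of fibrosis, was at 2.39, 4.26 and 7.56 CPM in the Het females, 3.04, 4.39 and 7.45 CPM in the Het males, 2.32, 5.14 and 7.27 CPM in the KO females and 7.45, 10.4 and 3.39 CPM in the KO males. The lowest and the highest level both occurred in KO livers, and no difference was detected (log2 fold change 0.28, SE 0.38, adjusted p = 0.637). Col1a2, its partner chain, was at 10.5, 12.04 and 17.6 CPM in the Het females, 9.01, 9.60 and 13.3 CPM in the Het males, 5.49, 8.45 and 13.6 CPM in the KO females and 12.05, 18.3 and 6.27 CPM in the KO males (log2 fold change -0.17, SE 0.28, adjusted p = 0.699). Again the genotypes overlapped over most of their range. An interval of 2 SE on either side put the change of Col1a1 between -0.48 and 1.04 and that of Col1a2 between -0.72 and 0.38 on the log2 scale.

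Col3a1, the type III chain, was at 24.2, 24.0 and 60.7 CPM in the Het females, 22.3, 27.7 and 44.1 CPM in the Het males, 2.63, 8.27 and 19.8 CPM in the KO females and 23.1, 40.6 and 9.69 CPM in the KO males. The KO females held the 2 lowest values, but the KO males overlapped both Het groups, and the difference did not pass the test (log2 fold change -1.09, SE 0.50, adjusted p = 0.150). Leaving out KO_F_123 took its adjusted p to 0.0492, and leaving out each other mouse gave 0.101 or more. Col5a1, the main type V chain, was at 12.7 to 17.4 CPM in Het and 6.11 to 16.2 CPM in KO livers (log2 fold change -0.47, SE 0.19, adjusted p = 0.0989). It passed without KO_F_123 (adjusted p = 0.0369) and without KO_M_122 (adjusted p = 0.0490) only. KO_F_123 and KO_M_122 had the highest Col1a1, Col1a2, Col3a1 and Col5a1 among KO livers apart from KO_M_118, whose Col1a1, Col3a1 and Col5a1 were above those of KO_F_123. Col5a2, the partner of Col5a1, was at 14.8, 4.16 and 12.8 CPM in the Het females, 3.30, 3.09 and 4.19 CPM in the Het males, 3.59, 5.85 and 6.27 CPM in the KO females and 4.87, 11.0 and 4.44 CPM in the KO males. Het males were the lowest group and 2 of the Het females the highest livers, and the mean effect over both sexes was close to 0 (log2 fold change -0.041, adjusted p = 0.946), with its sign turning under other count tables.

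The fibrillar genes that fell were Col27a1 and Col5a3, and they did so from a high level in Het males. Col27a1, a fibrillar chain best known from cartilage, was at 15.3, 6.505 and 14.9 CPM in the Het females, 58.1, 50.5 and 29.9 CPM in the Het males, 2.696, 9.44 and 6.997 CPM in the KO females and 7.72, 11.4 and 15.8 CPM in the KO males. Over both sexes it was 2.75-fold lower in KO (log2 fold change -1.46, SE 0.33, adjusted p = 0.0122), and called in every alternative. In males the fall was 3.95-fold (log2 fold change -1.98, adjusted p = 0.0327), and in females it did not pass (log2 fold change -0.93, adjusted p = 0.217). Col5a3, the third chain of type V collagen, was at 4.96, 8.72 and 9.20 CPM in the Het females, 43.4, 38.5 and 32.0 CPM in the Het males, 4.71, 7.31 and 8.50 CPM in the KO females and 14.02, 13.9 and 21.4 CPM in the KO males. Het males stood above all other livers, KO males lay between them and the females, and the KO and Het females overlapped. Over both sexes it was 1.60-fold lower (log2 fold change -0.68, SE 0.19, adjusted p = 0.0258). The call was lost without Het_F_126, Het_M_119, KO_M_118 or KO_M_122, with an adjusted p of 0.0585 at most.

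Col11a2, a minor fibrillar chain of cartilage, was at 0.676, 0.995 and 0.648 CPM in the Het females, 1.20, 0.553 and 0.992 CPM in the Het males, 3.32, 2.04 and 1.34 CPM in the KO females and 0.996, 1.05 and 0.870 CPM in the KO males. Only the KO females stood apart, with all 3 above the other 9 livers. It rose 1.71-fold over both sexes (log2 fold change 0.77, SE 0.25, adjusted p = 0.0471) and 2.76-fold in females (log2 fold change 1.46, adjusted p = 0.0247), and did not differ detectably in males (log2 fold change 0.084, adjusted p = 0.920). The call over both sexes held in 3 of 12 fits that left out a mouse, those without Het_F_115, Het_M_119 or KO_F_123, with adjusted p from 0.0204 to 0.110. It held in 5 of the 13 other alternatives of counts, filter, scaling or method. Col24a1 was at no more than 1.16 CPM in any liver and was not called (log2 fold change -0.22, adjusted p = 0.656).

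Fibrillar and type IV chains were also set against each other within each liver. The ratio of summed fibrillar TPM to summed type IV TPM was 1.32, 0.656 and 2.17 in the Het females and 1.72, 3.08 and 1.81 in the Het males. In the KO females it was 0.309, 0.389 and 0.564, and in the KO males it was 0.740, 0.789 and 0.758. Het_F_115 was the only Het liver that overlapped the KO livers, and the other 5 lay above all of them. The ratio averaged 1.79 ± 0.814 in Het and 0.591 ± 0.205 in KO (SD, n = 6). The fibrillar sum also holds Col27a1 and Col5a3, which were high in Het males. Col1a1, Col1a2 and Col3a1 together averaged 10.6 of 17.01 fibrillar TPM in the Het females and 7.81 of 19.9 in the Het males. In the KO females they averaged 4.097 of 8.003 TPM and in the KO males 7.25 of 13.3 TPM. The ratio is thus not one of type I and type III alone, and a ratio of those chains to type IV was not tested. The median log2 fold change of the fibrillar genes minus that of the type IV genes was -0.70, a description over 9 and 6 genes that received no test. It was negative under all alternatives, between -1.08 and -0.57.

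**Figure D3:**
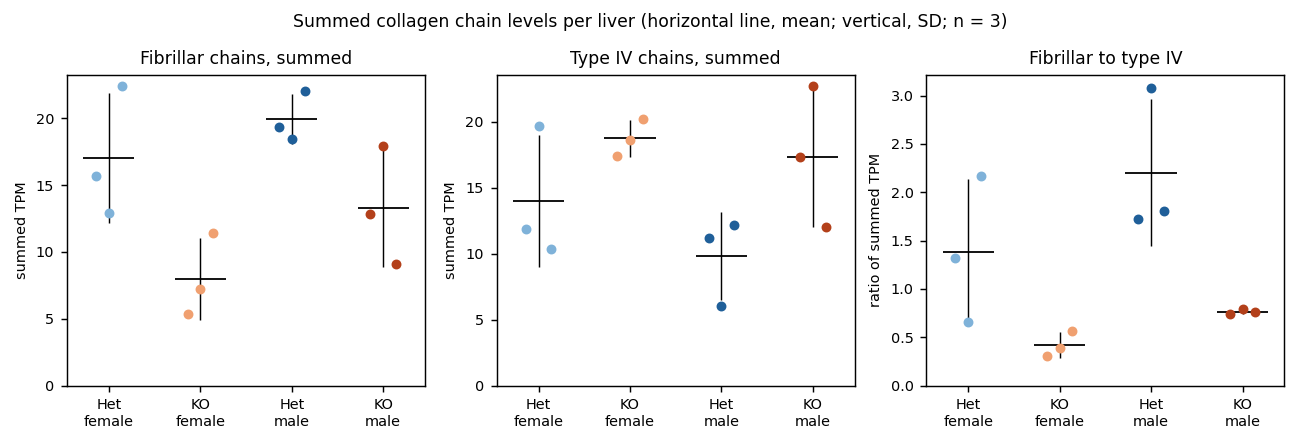
Summed TPM of the fibrillar chains (left), summed TPM of the type IV chains (middle) and their ratio (right) in each liver, with the group mean (horizontal line) and SD (vertical line, n = 3). TPM sums depend on the share of a library taken by Rn7s1 and Rn7s2, which the ratio does not; the ratio is 0.309 to 0.789 in KO livers and 0.656 to 3.08 in Het livers.

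Levels of marker genes of liver cell types are given beside these results. Of 10 hepatic stellate cell markers, 5 fell and 0 rose (Colec11, Ecm1, Lrat, Ngfr and Reln), and the summed level of the 10 was 229 to 438 CPM in Het and 107 to 196 CPM in KO livers, without overlap. Over all genes 10.2% fell and 12.2% rose, which is the background for this and the next counts of markers. Reln made up a large part of the stellate sum, at 118.7 to 228 CPM in Het and 30.1 to 83.1 CPM in KO livers. The lack of overlap in the sum did not hold without Reln. The rest of the sum was higher in KO_M_122 (196 CPM in all, 83.1 of it Reln) than in Het_M_125 (229 CPM in all, 118.7 of it Reln). Lrat, the retinyl ester synthase of quiescent stellate cells, was at 19.9 to 38.5 CPM in Het and 4.27 to 11.0 CPM in KO livers. Of 8 markers of activated myofibroblasts none was called, and their sum was 9.73 to 25.1 CPM in Het and 7.75 to 25.4 CPM in KO livers. Of 7 portal fibroblast markers, 6 were tested, and Entpd2 and Pi16 rose whereas Mfap4 fell (summed level 4.47 to 6.68 CPM in Het and 5.24 to 8.16 CPM in KO livers). Among 5 smooth muscle markers Myh11 fell, and the sums were 7.19 to 11.4 CPM in Het and 4.06 to 8.63 CPM in KO livers. Of 8 sinusoidal endothelial markers 6 fell (summed level 207 to 390 CPM in Het and 160 to 263 CPM in KO livers), and of 6 Kupffer cell markers 3 rose (Cd5l, Marco and Vsig4, summed level 89.6 to 248 CPM in Het and 132 to 414 CPM in KO livers). No marker of vascular endothelium, cholangiocytes or mesothelium was called. No marker found in the table was at 0 in all livers. In bulk tissue, fewer cells of a type and less RNA per cell cannot be told apart, and the part of these cell types in the collagen differences was not tested.

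Of the collagens that sit on fibrils, Col14a1 and Col16a1 fell. Col14a1, whose chain is also called undulin and regulates fibril growth, was at 75.0, 77.9 and 77.2 CPM in the Het females, 58.2, 50.5 and 68.9 CPM in the Het males, 13.3, 26.4 and 35.8 CPM in the KO females and 30.9, 47.7 and 16.4 CPM in the KO males. All KO livers were below all Het livers, as 4.64% of the genes tested were, and the fall was 2.38-fold (log2 fold change -1.25, SE 0.27, adjusted p = 0.00832). It was called in females (log2 fold change -1.60, adjusted p = 0.0262) but not in males (log2 fold change -0.90, adjusted p = 0.172), and in every alternative over both sexes. Col16a1 was at 3.44 to 5.85 CPM in Het and 1.27 to 3.41 CPM in KO livers, again without overlap, and was 1.84-fold lower in KO (log2 fold change -0.88, SE 0.23, adjusted p = 0.0172).

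Col22a1, a chain known from tissue junctions such as that of muscle and tendon, was near absent in Het livers, with 0 to 2 counts per liver and 5 in total. The KO females had 18, 43 and 6 counts and the KO males 9, 2 and 7, or 85 in total. The pooled ratio of KO to Het, scaled to library size, was 16.9, with a 95% interval of 6.95 to 53.2 that covers counting error only (exact binomial). The test called it over both sexes (adjusted p = 0.00291) and in females (adjusted p = 0.00734). It passed the filter through the KO livers alone, so that its call and its lack of overlap are given as a description. Col9a3, Col12a1 and Col20a1 were not called, with log2 fold changes of -0.090, -0.077 and -0.21.

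Type VI collagen, a beaded filament around cells, is made of α1 and α2 chains with α3 or one of its relatives. Col6a3 was at 16.3, 19.4 and 24.1 CPM in the Het females, 12.5, 12.8 and 21.0 CPM in the Het males, 4.74, 9.35 and 9.25 CPM in the KO females and 8.92, 14.4 and 6.27 CPM in the KO males. KO livers were lower apart from an overlap of KO_M_122 with 2 of the Het males, and the fall was 1.998-fold (log2 fold change -0.998, SE 0.24, adjusted p = 0.0133), called in females (log2 fold change -1.35, adjusted p = 0.0308) and not in males (log2 fold change -0.65, adjusted p = 0.271). Col6a1 and Col6a2, its partners, were not called (log2 fold change -0.29, adjusted p = 0.358 and log2 fold change -0.42, adjusted p = 0.232). Col6a5, a relative of Col6a3, had 6 to 14 counts per Het liver and 0 to 6 per KO liver, or 63 against 10 in total. The pooled ratio of Het to KO was 6.36, with a 95% interval of 3.24 to 13.9 for counting error, and the test called it lower in KO (adjusted p = 0.0113), again as a description, since it passed the filter through the Het livers alone. Of the short-chain network genes, Col8a2 had 3 to 23 counts per Het liver and 2 to 11 per KO liver and fell 1.89-fold (log2 fold change -0.92, SE 0.30, adjusted p = 0.0449), a call that held in 3 of 12 fits that left out a mouse (without Het_F_115, Het_M_119 or KO_M_118), with adjusted p from 0.0270 to 0.104. It too passed the filter through the Het livers alone. Col8a1 was not called (log2 fold change 0.33, adjusted p = 0.512).

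Col18a1, the most abundant collagen gene, was at 907, 905 and 949 CPM in the Het females, 1036, 974 and 1010.4 CPM in the Het males, 1273, 1321 and 1191 CPM in the KO females and 1302, 1024 and 1415 CPM in the KO males. Only KO_M_122 fell within the range of the Het livers, and the rise of 1.30-fold (log2 fold change 0.38, SE 0.10, adjusted p = 0.0203) was small beside that of Col4a3. It did not pass within females (log2 fold change 0.46, adjusted p = 0.0623) or within males (log2 fold change 0.31, adjusted p = 0.217), and the call over both sexes was lost without KO_M_118 (adjusted p = 0.0570) or KO_M_136 (adjusted p = 0.0590). Slc19a1, a folate transporter gene on the opposite strand, overlaps Col18a1, and the libraries keep strand. Col15a1, the other multiplexin, was at 2.02 to 6.56 CPM in Het and 1.46 to 5.63 CPM in KO livers, with -0.68 in females and 0.87 in males on the log2 scale and no call in any comparison. The sign of its effect over both sexes (log2 fold change 0.097, adjusted p = 0.838) turned without Het_F_126, Het_M_125 or KO_F_123.

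Within females, 7 collagen genes were called, where 11.0% of all genes were. Col4a3, Col4a5, Col11a2 and Col22a1 were higher in KO (5.94% of all genes higher) and Col6a3, Col8a2 and Col14a1 lower (5.10% lower). Among these, Col22a1 passed the filter through the KO livers alone and Col8a2 through the Het livers alone, so their calls are a description. Within males, 5 were called, where 7.45% of all genes were. Col4a3, Col4a5 and Col6a6 were higher (4.47% of all genes higher) and Col5a3 and Col27a1 lower (2.98% lower). Only Col4a3 and Col4a5 were called in both, and the call of Col4a5 in females was lost in 10 of the 12 fits without 1 mouse. A call in 1 sex alone does not show that the sexes differ. The test of that difference called 0 collagen genes with edgeR, 6 (17.1%, beside 9.28% of all genes) with an unadjusted p under 0.05, and 1 (Col6a6, adjusted p = 0.0461) with DESeq2, and over all genes edgeR called 0.0465% (0.0362% with the larger KO effect in males and 0.0103% in females). The calls within a sex also rested on few animals. The lower calls in females went to 0 without Het_F_126, KO_F_108 or KO_F_112, to 1 without Het_F_111 or Het_F_115 and to 6 without KO_F_123, and those in males to 0 without Het_M_119, Het_M_125 or KO_M_118 and to 1 without KO_M_122 or KO_M_136. The higher calls in females went to 2 without Het_F_111, Het_F_126 or KO_F_112.

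**Figure D4:**
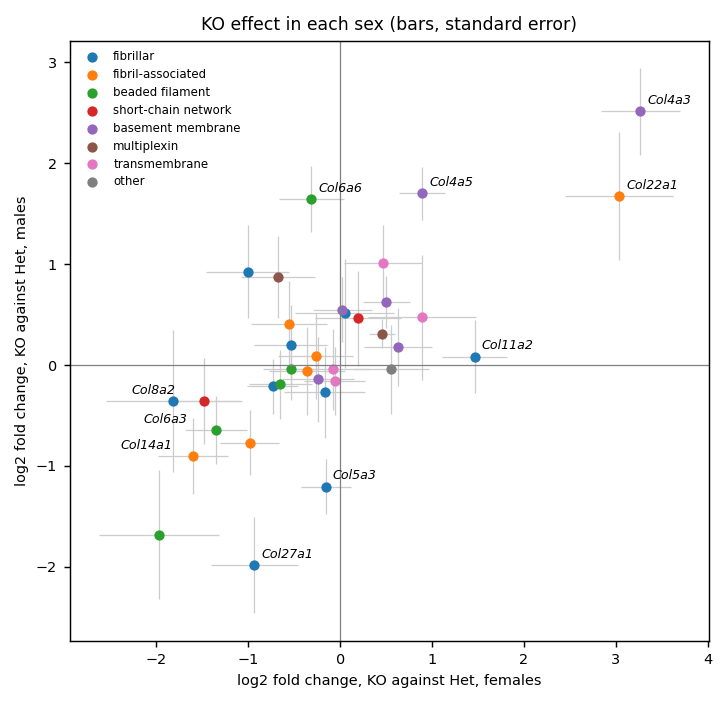
Log2 fold change of each tested collagen gene, KO against Het, in females (horizontal axis) and in males (vertical axis), with standard errors as bars and genes called in either sex named. Col4a3, Col4a5 and Col22a1 (tested only through its KO livers) lie high in both directions, Col6a6 (-0.32 in females, 1.64 in males) and Col11a2 (1.46 in females, 0.084 in males) near an axis.

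Col6a6, another relative of Col6a3, was at 0.761, 0.357 and 0.583 CPM in the Het females, 0.5005, 0.976 and 0.480 CPM in the Het males, 0.372, 0.557 and 0.402 CPM in the KO females and 2.56, 2.16 and 1.74 CPM in the KO males. The 3 KO males stood above the other 9 livers, and in males it rose 3.13-fold (log2 fold change 1.64, adjusted p = 0.0138), whereas over both sexes it did not pass (log2 fold change 0.66, adjusted p = 0.0806). The difference between the sexes in this effect had an adjusted p of 0.280. Col25a1, a transmembrane collagen best known from neurons, was at 0.394, 0.281 and 0.734 CPM in the Het females, 1.53, 0.911 and 2.01 CPM in the Het males, 0.744, 0.433 and 0.858 CPM in the KO females and 4.01, 2.01 and 3.10 CPM in the KO males. Males were higher than females by 3.49-fold over both genotypes (log2 fold change 1.80, SE 0.29, adjusted p = 0.0106), and the genotype effect did not pass (log2 fold change 0.74, adjusted p = 0.0861). Its locus holds 5 other annotated genes on the same strand, among them unclassified transcripts and a pseudogene, with which reads could be shared. In all, 3 collagen genes were higher in males and 0 were lower, where 1.02% of all genes were called, with 0.512% higher and 0.506% lower. Beside Col25a1 these were Col5a3 (log2 fold change 1.78, SE 0.20, adjusted p = 0.00123) and Col6a6 (log2 fold change 1.17, SE 0.25, adjusted p = 0.0474), and the sexes overlapped in Het livers for Col6a6 and in neither genotype for Col5a3. Het males averaged 38.0 ± 5.73 CPM of Col5a3 and KO males 16.5 ± 4.32, against 7.63 ± 2.32 and 6.84 ± 1.94 in Het and KO females (SD, n = 3). The calls of Col5a3 and Col25a1 by sex held whichever mouse was left out, and that of Col6a6 was lost whichever was left out.

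**Figure D5:**
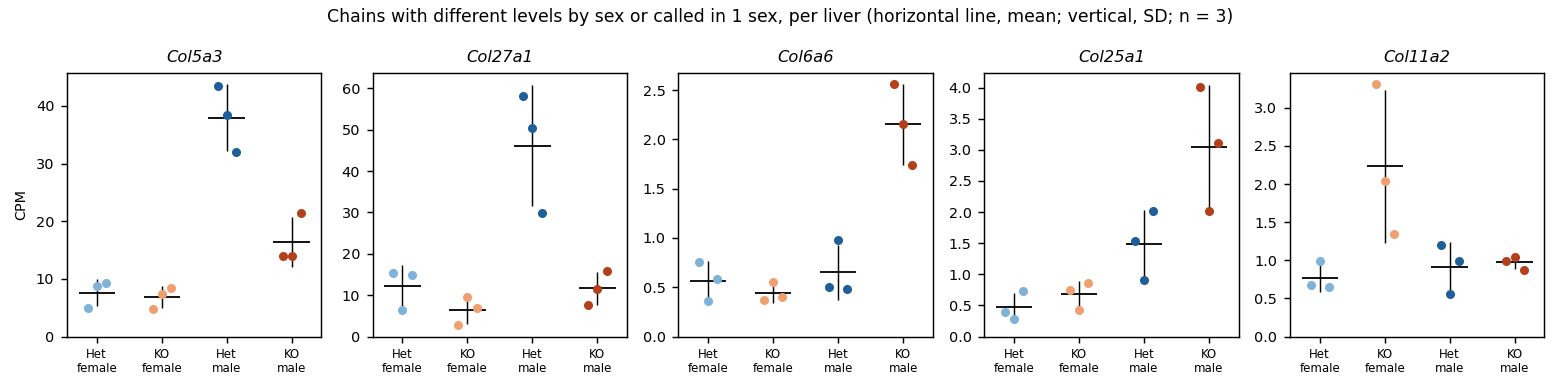
CPM of Col5a3, Col27a1, Col6a6, Col25a1 and Col11a2 in each liver, with the group mean (horizontal line) and SD (vertical line, n = 3). Het males are highest for Col5a3 (32.0 to 43.4 CPM) and Col27a1 (29.9 to 58.1 CPM), KO males for Col6a6 (1.74 to 2.56 CPM), and KO females for Col11a2 (1.34 to 3.32 CPM).

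The transmembrane genes Col13a1, Col17a1 and Col23a1 were not called in any comparison, with levels of at most 9.01, 0.496 and 0.291 CPM in any liver. Col7a1 did not exceed 0.774 CPM. Col3a1 and Col5a2, 16714 bases apart, were both uncalled, and of Col6a5 and Col6a6, 27709 bases apart, Col6a5 fell and Col6a6 did not pass over both sexes.

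Among 134 genes that make, cut, sense or surround collagen, all but 9 were tested, and 21 rose and 26 fell (37.6% called, beside 22.4% of all genes). The 21 and the 37.6% include Mmp8, Mmp13 and Mmp24, which passed the filter through the KO livers alone, so their calls are a description. The count of falls went to 15 without KO_F_108, to 16 with the scaled counts or without Het_M_137, KO_M_118 or KO_M_136, and to 17 without Het_F_111. Collagen assembly had the fewest calls, with 2 higher and 3 lower of 32 tested (15.6%, below the 22.4% of all genes). Colgalt1, which adds galactose to hydroxylysine, was at 42.7 to 49.2 CPM in Het and 60.6 to 75.7 CPM in KO livers and rose (log2 fold change 0.55, SE 0.071, adjusted p = 0.000474), as did Tmem38b, an endoplasmic reticulum cation channel needed for collagen modification (log2 fold change 0.39, SE 0.091, adjusted p = 0.0109). Serpinh1, the collagen chaperone HSP47, was at 9.78, 10.1 and 14.5 CPM in the Het females, 6.01, 8.07 and 11.8 CPM in the Het males, 2.42, 5.17 and 6.06 CPM in the KO females and 4.76, 9.68 and 3.05 CPM in the KO males. It fell (log2 fold change -0.94, SE 0.30, adjusted p = 0.0463), although the genotypes overlapped through KO_F_123 and KO_M_122, and it did not pass with the scaled counts, without a filter or with library size as the only scaling. P3h3, a prolyl 3-hydroxylase, fell (log2 fold change -0.64, SE 0.19, adjusted p = 0.0333). The prolyl 4-hydroxylase subunits P4ha1 (log2 fold change -0.30, adjusted p = 0.499) and P4hb (log2 fold change 0.14, adjusted p = 0.368) and the crosslinking oxidase Lox (log2 fold change 0.76, adjusted p = 0.151) were not called.

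Collagen breakdown had 7 genes higher and 3 lower of 20 tested, beside 12.2% higher and 10.2% lower over all genes. Of those higher, Mmp8, Mmp13 and Mmp24 passed the filter through the KO livers alone. Mmp12, the macrophage elastase, was at 0.197, 0.153 and 0.324 CPM in the Het females, 0.167, 0.228 and 0.288 CPM in the Het males, 1.92, 1.24 and 2.49 CPM in the KO females and 1.68, 2.51 and 0.870 CPM in the KO males, and Mmp7, matrilysin, at 0.0564, 0.179 and 0.389 CPM in the Het females, 0.1001, 0.195 and 0.0960 CPM in the Het males, 2.85, 2.79 and 2.87 CPM in the KO females and 1.40, 1.19 and 0.435 CPM in the KO males. Both were higher in every KO liver than in any Het liver (for Mmp12 log2 fold change 2.69, SE 0.31, adjusted p = 0.000240; for Mmp7 log2 fold change 2.97, SE 0.35, adjusted p = 0.000278). Pepd, the prolidase that recycles proline from collagen fragments, fell from 28.7 to 37.5 CPM to 18.6 to 25.7 CPM (log2 fold change -0.59, SE 0.10, adjusted p = 0.00241). The gelatinase Mmp2 (log2 fold change -0.26, adjusted p = 0.485) and the inhibitor Timp1 (log2 fold change 0.83, adjusted p = 0.189) were not called.

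Collagen receptors had 3 higher and 3 lower of 9 tested, beside 12.2% higher and 10.2% lower over all genes. Itga2, the integrin α2 subunit that binds collagen, was at 0.254, 0.689 and 0.216 CPM in the Het females, 0.200, 0.163 and 0.192 CPM in the Het males, 18.5, 2.04 and 0.992 CPM in the KO females and 1.63, 1.46 and 1.92 CPM in the KO males. KO_F_108 stood far above the rest, but each KO liver was above each Het liver (log2 fold change 3.44, SE 0.71, adjusted p = 0.00786). Itga1, the related α1 subunit, fell (log2 fold change -0.38, SE 0.086, adjusted p = 0.00915), as did Ddr2, a receptor tyrosine kinase for fibrillar collagen (log2 fold change -0.86, SE 0.21, adjusted p = 0.0148), whereas their common partner Itgb1 was not called (log2 fold change -0.13, adjusted p = 0.263).

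Of 24 tested interstitial matrix genes 8 fell and 2 rose, and of 17 basement membrane genes other than type IV 6 fell and 2 rose, where 10.2% of all genes fell and 12.2% rose. Tnxb, the tenascin that links collagen fibrils, was at 22.7, 16.7 and 43.3 CPM in the Het females, 30.5, 33.8 and 37.5 CPM in the Het males, 8.06, 7.71 and 11.6 CPM in the KO females and 11.3, 17.1 and 7.72 CPM in the KO males (log2 fold change -1.54, SE 0.25, adjusted p = 0.00207). Sparcl1 (log2 fold change -1.35, adjusted p = 0.000551), a matricellular protein, and Fbln1 (log2 fold change -1.56, adjusted p = 0.00524), a fibulin, also fell. Fn1, fibronectin (log2 fold change -0.15, adjusted p = 0.318), and Sparc, a collagen-binding matricellular protein (log2 fold change -0.32, adjusted p = 0.335), were not called. In the basement membrane, the laminin chain Lama4 fell (log2 fold change -1.28, SE 0.16, adjusted p = 0.000452), whereas Lama5 (log2 fold change 0.78, SE 0.12, adjusted p = 0.00145) and Nid1, nidogen, which bridges laminin to type IV collagen (log2 fold change 0.99, SE 0.16, adjusted p = 0.00142), rose. Nid1 was at 22.9, 22.2 and 23.5 CPM in the Het females, 15.9, 13.6 and 20.1 CPM in the Het males, 58.5, 50.5 and 36.2 CPM in the KO females and 24.1, 41.1 and 27.8 CPM in the KO males, higher in every KO liver. Lamb1 was not called (log2 fold change -0.52, adjusted p = 0.0866).

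Of 23 genes of TGF-β signalling, the main inducer of collagen in fibrosis, 5 rose and 3 fell, where 12.2% of all genes rose and 10.2% fell. The receptor Tgfbr2 was at 21.99 to 39.0 CPM in Het and 47.6 to 91.6 CPM in KO livers (log2 fold change 1.20, SE 0.16, adjusted p = 0.000587). Ltbp4, which holds latent TGF-β in the matrix, fell from 29.6 to 43.3 CPM to 6.94 to 18.2 CPM (log2 fold change -1.73, SE 0.18, adjusted p = 0.000124), and the co-receptor Tgfbr3 fell as well (log2 fold change -0.71, SE 0.15, adjusted p = 0.00735). Ccn2, a TGF-β target, rose (log2 fold change 1.16, SE 0.33, adjusted p = 0.0268), and the ligand Tgfb1 was not called (log2 fold change -0.18, adjusted p = 0.534).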

How the data were processed

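Strand-specific libraries, cleared of rRNA, were sequenced by the authors from 12 livers, processed with the nf-core RNA-seq pipeline and, per the labels, aligned with STAR 2.7.9a to GRCm39 and quantified with Salmon 1.10.1 (GENCODE M34). The authors deposited estimated counts per gene (12% of values were not whole, and they were rounded here), 2 further tables of estimated counts scaled from abundance, and TPM, which was used for levels between genes. No deposited sample column was left unused (0 columns). Genes with at least 5 reads, scaled to the median library, in at least 3 livers were kept. They were fitted with edgeR 4.0.16 in R 4.3.3 (TMM scaling, quasi-likelihood, the newer method, robust, prior count 2) on a mean per group. The genotype effect is the mean over the sexes, and calls are Benjamini-Hochberg adjusted p under 0.05 over all 19350 genes. SEs were taken from the F statistic. The older method is this edgeR version's default and was an alternative, as were the other count tables, filters and scalings, DESeq2 1.42.0, limma 3.58.1 on log2(TPM + 1) and log2(TPM + 0.1), and leaving out each mouse. The fit was tested on simulated data. Nothing says more of the replicates than that they are separate mice, and p-values measure the spread between them. Coordinates and exons come from GENCODE M39, a later annotation of the same build. Members, classes and lists were chosen with earlier results of these data known, and support nothing by their choice. Named were all called collagens, 13 preset collagens, and per collagen-related list the 3 called genes of smallest p with 14 preset genes. Others (stellate and other markers, and Slc19a1, Col4a4, Col4a6 and the uncalled minor chains) were named after their values were seen.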

Additional observations from a re-analysis of the deposited data

Results flagged for a closer look

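Each tested collagen gene was looked at for a liver far from the other 5 of its genotype, by Dixon's ratio at its 95% critical value of 0.625 for 6 livers. This gave 3 cases among 70 gene and genotype combinations, and chance flags about 1 in 20. Het_M_119 was lowest for Col4a4 among the Het livers, at 0.934 CPM. KO_F_112 was highest for Col20a1 among the KO livers, at 2.35 CPM. KO_M_122 was highest for Col5a2 among the KO livers, at 10.96 CPM. None of these 3 genes was called for genotype. No collagen gene passed the edgeR test of a difference in the KO effect between the sexes.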

How the results depend on the processing

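No paired analysis was made, because the labels give only unique mouse numbers and not the litter of each mouse. The Het mice were littermates, and mice of the same litter may not be independent of each other. Over both sexes the collagen genes called lower went from 7 to 4 with the scaled estimated counts and with limma on log2(TPM + 0.1), and those called higher stayed within 1.5 times of 6 in all settings but 1 left-out mouse. Without each mouse in turn, 3 to 6 were higher (3 without KO_M_118) and 5 to 8 lower. In females the lower calls went from 3 to 1 with the scaled counts and without a filter and to 5 with DESeq2 (0 to 6 over left-out mice), and the higher calls from 4 to 2 with limma at either pseudocount (2 to 4 over left-out mice). In males the lower calls went from 2 to 1 without a filter (0 to 2 over left-out mice). The difference between sexes had 1 higher call with DESeq2, in place of 0. Of the collagen-related genes, 13 in place of 21 were higher with the scaled counts and with at least 10 reads in every sample and 12 with limma on log2(TPM + 1), and 16 and 17 in place of 26 were lower with the scaled counts and that limma fit (15 to 33 over left-out mice, with 15 without KO_F_108, 16 without Het_M_137, KO_M_118 or KO_M_136 and 17 without Het_F_111). The fibrillar minus type IV median of -0.70 moved to -0.85 with length-scaled counts, -1.08 with scaled counts, -0.89 with at least 10 reads in every sample and -0.94 with limma on log2(TPM + 0.1), and lay between -0.93 and -0.57 over left-out mice. The cause of these moves was not tested. Among the 57 genes given with their statistics under each setting, signs turned for 3, all uncalled. Col5a2 became 0.13 with length-scaled, 0.11 with scaled counts, 0.017 and 0.12 with limma at pseudocounts of 1 and 0.1, and 0.11, 0.029, 0.017, 0.052, 0.045 and 0.064 without Het_F_111, Het_F_126, Het_M_137, KO_F_108, KO_M_118 and KO_M_136. Col15a1 became -0.052, -0.00099 and -0.19 without Het_F_126, Het_M_125 and KO_F_123, and Col4a6 became 0.014 without Het_M_125. Over left-out mice Col5a2 ranged from -0.30 to 0.11, Col15a1 from -0.19 to 0.30 and Col4a6 from -0.34 to 0.014. Col3a1 passed with DESeq2. Of the other values of these 57 genes, 1293 kept their direction and side of the threshold, 93 fell below it and 10 rose above it. Signs also turned under some alternative for Col7a1, Col9a3, Col12a1, Col13a1, Col17a1, Col20a1 and Col23a1, all uncalled. Depth limits the folds of genes under about 1 CPM, and limma on log2(TPM + 1) shrinks them.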
